A study of Mus musculus with 8 samples.

Results

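The tumour necrosis factor gene Tnf and 9 chemokine genes, namely Ccl2, Ccl4, Ccl7, Ccl8, Ccl11, Ccl20, Ccl28, Cxcl12 and Cxcl13, were followed across all 8 arrays of a mouse gut mucosa study. They were chosen by name, with earlier results of these data known. They are 10 of the 16309 genes that could be named on the array, held by 12 of its probes. The arrays cover the mucosa of the rectum, taken as the last 7 mm before the anus, and of the middle colon, between 2.5 and 3.5 cm from the ileocecum. The mice were knockout mice without the gene for interleukin 18 (IL18ko) and wild-type (WT) mice, all male. The labels used here do not name their strain. In both genotypes stressed mice had been taken out of a cage of 5 brothers at an age of 10 to 12 weeks and housed singly as isolation stress, while control mice were killed from the shared cage before isolation began. The labels give the isolation as 8 days in one place and 16 days in another, so stressed mice were also older by that time, and stress and age cannot be told apart. Each array carried RNA pooled from 5 mice, and the 8 groups were IL18ko stress, IL18ko control, WT stress and WT control, each in rectum and in colon. No group had a second array, so the spread behind every test is that between pools of different groups.

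Chemokines are small secreted proteins that guide white blood cells along a gradient by binding receptors that couple to G proteins. Inflammatory chemokines are made on demand after cytokines such as Tnf act on macrophages, stromal cells and epithelium, and draw monocytes, eosinophils and T cells into tissue. Homeostatic chemokines are made steadily and place lymphocytes in follicles, in marrow and along mucosal surfaces, and interleukin 18 is itself a cytokine that the gut epithelium releases after inflammasome activation.

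Ccl2, Ccl7, Ccl11 and Ccl8 lie on chromosome 11 within a run of 5 consecutive coding genes, in which Ccl12 lies between Ccl11 and Ccl8. Ccl4 is on chromosome 11 as well, as the 36th coding gene counted from Ccl2, while Tnf is on chromosome 17, Ccl20 on 1, Ccl28 on 13, Cxcl12 on 6 and Cxcl13 on 5. RefSeq promoters, on build GRCm38.p6, were at hand for 6 of the 10 genes. The 250 bases before the start of Tnf, Ccl20 and Ccl28 are printed because these genes differed between rectum and colon in the test below. Tnf is read from the minus strand of chr17:35202008-35202257, Ccl20 from the plus strand of chr1:83116516-83116765, and Ccl28 from the plus strand of chr13:119623569-119623818. Capitals mark the letters TATAAA (the TATA box) or a match to the NF-kB consensus, looked for on both strands together with TGANTCA (AP-1).
Tnf: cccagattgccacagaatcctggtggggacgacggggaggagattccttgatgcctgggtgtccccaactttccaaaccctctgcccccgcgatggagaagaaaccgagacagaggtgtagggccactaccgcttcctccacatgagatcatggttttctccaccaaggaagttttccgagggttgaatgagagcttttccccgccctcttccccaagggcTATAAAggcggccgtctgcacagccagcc
Ccl20: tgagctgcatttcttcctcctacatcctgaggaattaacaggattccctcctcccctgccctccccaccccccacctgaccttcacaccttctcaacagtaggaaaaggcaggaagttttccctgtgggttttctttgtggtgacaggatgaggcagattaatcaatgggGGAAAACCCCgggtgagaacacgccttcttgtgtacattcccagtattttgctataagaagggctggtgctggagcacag
Ccl28: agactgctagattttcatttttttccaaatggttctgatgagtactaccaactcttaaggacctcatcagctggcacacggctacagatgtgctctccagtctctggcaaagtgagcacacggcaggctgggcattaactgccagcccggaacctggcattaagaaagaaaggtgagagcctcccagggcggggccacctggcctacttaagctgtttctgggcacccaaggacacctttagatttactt
The Tnf window held TATAAA from 29 bases before the start, and the Ccl20 window held the NF-kB match GGAAAACCCC from 80 bases before the start. Ccl28 held none of the motifs in this window. Of the other 3 promoters, Ccl8 held TATAAA from base 32 and Cxcl13 from base 46 before the start, while Cxcl12 held none. Over 32851 mouse promoters of this length, 12.4% held TATAAA, 7.25% the NF-kB consensus and 6.75% the AP-1 letters. These matches describe the sequence and were not tested as binding sites.

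Values below are log2 levels, meaning the log2 intensity of a gene's brightest probe minus the 75th percentile of its array, and they compare arrays for 1 gene but not genes with each other. All 10 genes were tested, and 9 of them were well above background on all 8 arrays. Ccl4 was so on 6 arrays and missed it on both IL18ko rectum arrays. Each array had 43379 spots, of which 62.2% to 66.4% exceeded background clearly and 0 were saturated. Il18 itself matched the labels, with -8.01 to -7.62 on the IL18ko arrays, where it was not well above background, against 2.68 to 5.81 on the WT arrays.

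**Figure D1:**
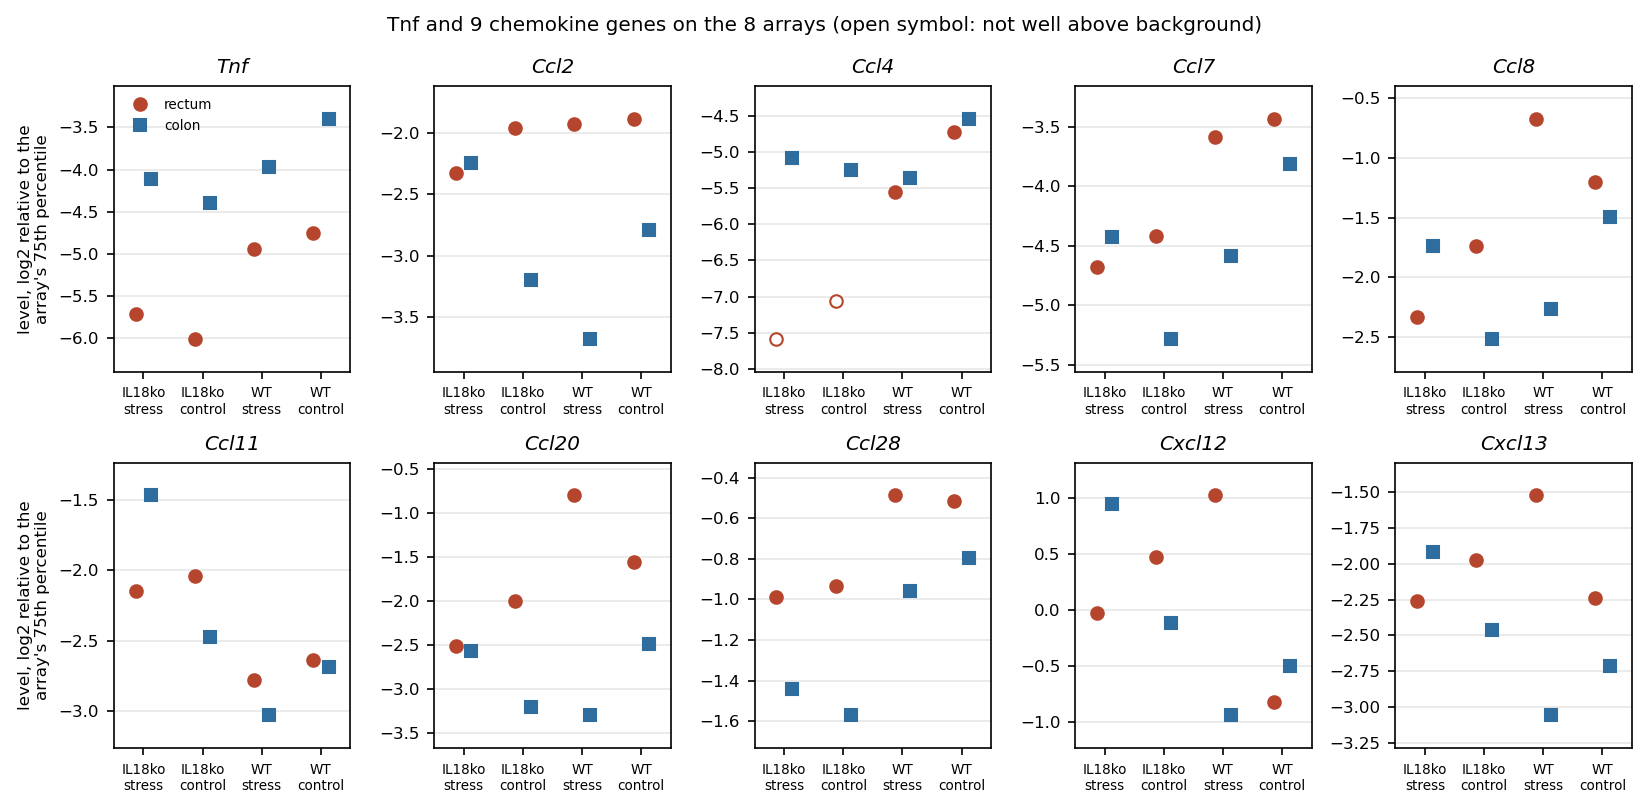
Log2 level of each of the 10 genes (vertical axis, relative to the array's 75th percentile, scale set per gene) on the 4 rectum arrays (circles) and 4 colon arrays (squares), with IL18ko and WT, stress and control along the horizontal axis; each point is 1 array of pooled RNA and open points were not well above background. Tnf lies lower on every rectum array than on every colon array, and no other gene of the 10, each shown by its brightest probe, separates the tissues.

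Rectum differed from colon for 4 of the 10 genes. Tnf and Ccl4 were lower in rectum, by 1.39 and 1.17 on the log2 scale, and Ccl20 and Ccl28 were higher, by 1.18 and 0.46. Over all 26265 probes tested, 25.1% differed between the tissues, 12.3% higher and 12.8% lower in rectum, so 4 of 10 is not far from that background. At an unadjusted p under 0.05 there were 5 of the 10 genes, against 38.2% of all probes. The median difference was 0.48 for the 10 genes and 0.06 over all probes tested. Tissue went with the array slide, since all rectum arrays lay on one slide and all colon arrays on another, and the effects of tissue and of slide cannot be told apart. In pooled tissue, fewer cells of a type and less RNA per cell cannot be told apart either.

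Tnf, a cytokine of macrophages and T cells that sets off inflammatory gene expression in its neighbours, was at -5.72 in IL18ko stress, -6.01 in IL18ko control, -4.95 in WT stress and -4.76 in WT control rectum. In colon it was at -4.12 in IL18ko stress, -4.40 in IL18ko control, -3.97 in WT stress and -3.40 in WT control mice. All 4 rectum arrays lay below all 4 colon arrays. By the brightest probe of each gene this was the only case among the 10 genes without overlap, where 31.1% of all probes tested did not overlap. The difference was -1.39 ± 0.23 (rectum minus colon, SE from limma, 4 arrays each; adjusted p = 0.00566), lower in rectum in 4 of 4 pairs with the same genotype and housing. The probe was printed in 10 spots per array, of which 9 entered for IL18ko control colon. The SD between the spots of an array ran from 0.10 to 0.42 on the log2 scale, which is technical spread within an array and not spread between samples. With model-based background correction the tissue difference was -0.41 and still passed. Tnf was dim throughout: 9 of 10 spots were well above background in IL18ko stress rectum and 5 of 10 in IL18ko control rectum, and all spots on the other arrays.

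**Figure D2:**
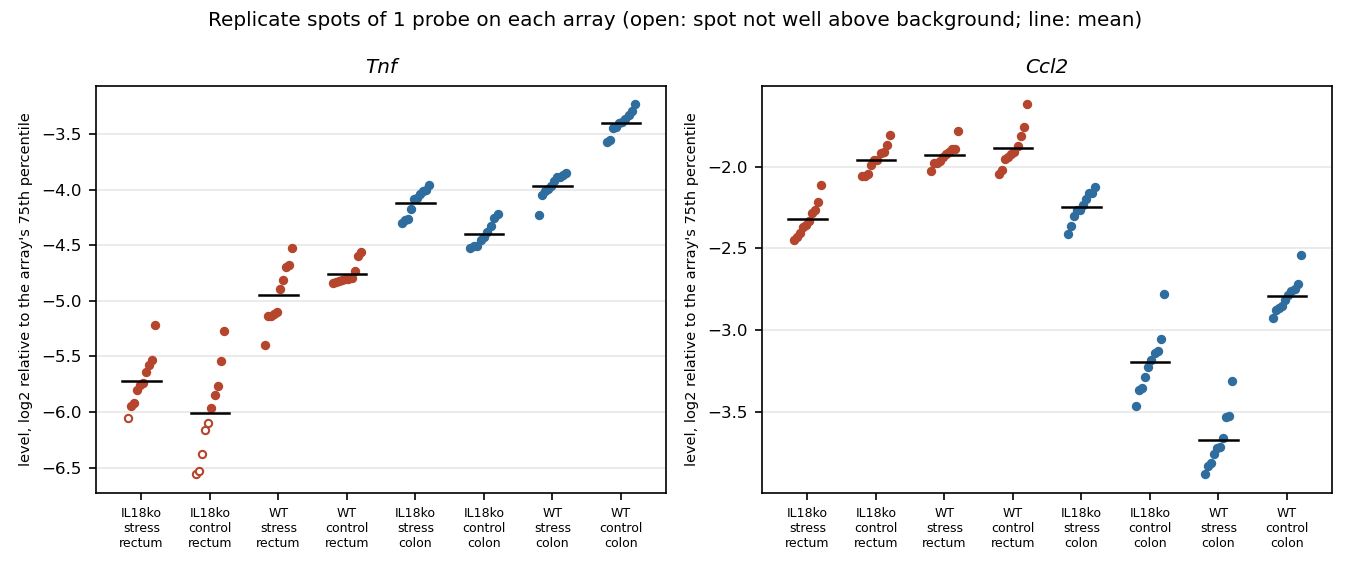
Log2 level (vertical axis, relative to the array's 75th percentile) of the single replicate spots of the Tnf and Ccl2 probes on each of the 8 arrays, rectum on the left and colon on the right of each panel; lines are array means and open points are spots not well above background. The spots of Tnf scatter most on IL18ko control rectum, with an SD of 0.42, and those of Ccl2 by at most 0.19 on any array.

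Ccl2 and Ccl7 call monocytes through the receptor Ccr2, and Ccl8, their close relative, acts in mice through Ccr8. Ccl2 was at -2.32 in IL18ko stress, -1.96 in IL18ko control, -1.93 in WT stress and -1.89 in WT control rectum, against -2.25, -3.20, -3.67 and -2.79 on the colon arrays of IL18ko stress, IL18ko control, WT stress and WT control. The 4 rectum arrays lay within a narrow span and the colon arrays spread widely, with IL18ko stress colon inside the range of rectum. The difference of 0.95 ± 0.29 did not pass (adjusted p = 0.0518). It passed at 1.41 without IL18ko stress colon or without WT control colon, and at 1.03 without IL18ko stress rectum or without WT control rectum. Such fits take the level of that tissue from IL18ko control and WT stress alone, so each pair of fits gives the same difference. Here and below, leaving out IL18ko control or WT stress takes the level from IL18ko stress and WT control alone. A tissue that lost an array adds no spread of its own to the test. The Ccl2 difference also passed under 6 other settings, at an adjusted p of 0.0371 to 0.0494.

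Ccl7 was at -4.68 in IL18ko stress, -4.42 in IL18ko control, -3.59 in WT stress and -3.44 in WT control rectum, against -4.43 in IL18ko stress, -5.28 in IL18ko control, -4.59 in WT stress and -3.81 in WT control colon. Ccl8 was at -2.33 in IL18ko stress, -1.74 in IL18ko control, -0.67 in WT stress and -1.20 in WT control rectum, against -1.74 in IL18ko stress, -2.52 in IL18ko control, -2.26 in WT stress and -1.49 in WT control colon. For both genes the tissues overlapped and the WT rectum arrays were the highest of the 8. The differences were 0.50 for Ccl7 (adjusted p = 0.25) and 0.52 for Ccl8 (adjusted p = 0.24). Ccl7 passed only without IL18ko stress colon, at 0.91 (adjusted p = 0.0475). Ccl8 passed without that array or WT control colon, at 0.90, and without IL18ko stress rectum or WT control rectum, at 0.79, with adjusted p from 0.0133 to 0.0489. A second Ccl7 probe gave 0.71 between the tissues, with no overlap of the arrays (adjusted p = 0.139).

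Ccl4, a chemokine made by activated macrophages, T cells and natural killer cells, was at -7.58 in IL18ko stress and -7.06 in IL18ko control rectum, both not well above background, and at -5.55 in WT stress and -4.72 in WT control rectum. In colon it was at -5.09 in IL18ko stress, -5.25 in IL18ko control, -5.36 in WT stress and -4.54 in WT control mice. Only the IL18ko rectum arrays stood apart, while the WT rectum arrays lay close to the colon arrays. The tissue difference of -1.17 ± 0.27 (adjusted p = 0.0201) was made up of -2.50 and -1.82 between the IL18ko arrays of stress and control mice and of -0.20 and -0.17 between the WT arrays. With signals held at the lowest level well above background of each array, the difference was -0.70 (adjusted p = 0.0738), and with model-based background correction -0.15 (adjusted p = 0.268). It also lost its call without IL18ko stress colon (adjusted p = 0.0956) or WT control colon (adjusted p = 0.101), at -0.93, and in 3 other designs, at an adjusted p of 0.0727 to 0.095.

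Ccl11, known as eotaxin, draws eosinophils through Ccr3. It was at -2.15 in IL18ko stress, -2.04 in IL18ko control, -2.78 in WT stress and -2.64 in WT control rectum, against -1.47 in IL18ko stress, -2.47 in IL18ko control, -3.03 in WT stress and -2.68 in WT control colon. The IL18ko arrays were above the WT arrays in both tissues, and the rectum values lay within the range of colon. The difference between rectum and colon was 0.01 ± 0.23 (adjusted p = 0.976).

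Ccl20 and Ccl28 are chemokines of mucosal epithelium. Ccl20, the ligand of Ccr6 on B cells, dendritic cells and some T cells, was at -2.51 in IL18ko stress, -2.00 in IL18ko control, -0.80 in WT stress and -1.55 in WT control rectum. In colon it was at -2.57 in IL18ko stress, -3.20 in IL18ko control, -3.30 in WT stress and -2.49 in WT control mice. WT stress rectum was the highest array, and IL18ko stress rectum lay just below WT control colon, so that the ranges met. The difference was 1.18 ± 0.29 (adjusted p = 0.027), higher in rectum in 4 of 4 pairs, and it passed whichever single array was left out. With model-based background correction it was 0.73 and still passed.

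Ccl28, which draws plasma cells that make immunoglobulin A through Ccr10, was at -0.99 in IL18ko stress, -0.93 in IL18ko control, -0.49 in WT stress and -0.51 in WT control rectum. In colon it was at -1.44 in IL18ko stress, -1.57 in IL18ko control, -0.96 in WT stress and -0.79 in WT control mice. Within each genotype and housing the rectum was higher in 4 of 4 pairs, and within each tissue both IL18ko arrays lay below both WT arrays. The tissue difference of 0.46 ± 0.13 passed narrowly (adjusted p = 0.0461). It no longer passed when 1 of the 4 colon arrays was left out, at 0.53 without IL18ko stress colon or WT control colon (adjusted p of 0.216 and 0.217) and at 0.39 without IL18ko control colon or WT stress colon (adjusted p of 0.429 and 0.43). Under 5 other settings it missed the threshold as well, at an adjusted p of 0.0502 to 0.112.

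Cxcl12 and Cxcl13 are homeostatic chemokines of stromal cells, of which Cxcl12 binds Cxcr4 and Ackr3, and Cxcl13 guides B cells into follicles through Cxcr5. Cxcl12 was at -0.03 in IL18ko stress, 0.47 in IL18ko control, 1.02 in WT stress and -0.82 in WT control rectum, against 0.95 in IL18ko stress, -0.12 in IL18ko control, -0.94 in WT stress and -0.50 in WT control colon. Cxcl13 was at -2.26 in IL18ko stress, -1.97 in IL18ko control, -1.52 in WT stress and -2.24 in WT control rectum, against -1.91 in IL18ko stress, -2.46 in IL18ko control, -3.06 in WT stress and -2.71 in WT control colon. In both genes WT stress was the highest array of rectum and the lowest of colon, while IL18ko stress was the lowest of rectum and the highest of colon for Cxcl13, and the highest of colon for Cxcl12. The tissue differences of 0.31 for Cxcl12 (adjusted p = 0.604) and 0.54 for Cxcl13 (adjusted p = 0.132) did not pass. Without IL18ko stress rectum or WT control rectum both passed, at 0.90 for Cxcl12 (adjusted p of 0.0246 and 0.0248) and 0.79 for Cxcl13 (adjusted p of 0.0157 and 0.0158). A second Cxcl12 probe, matched to another transcript, gave a tissue difference of the opposite sign, -0.38 (adjusted p = 0.348).

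**Figure D3:**
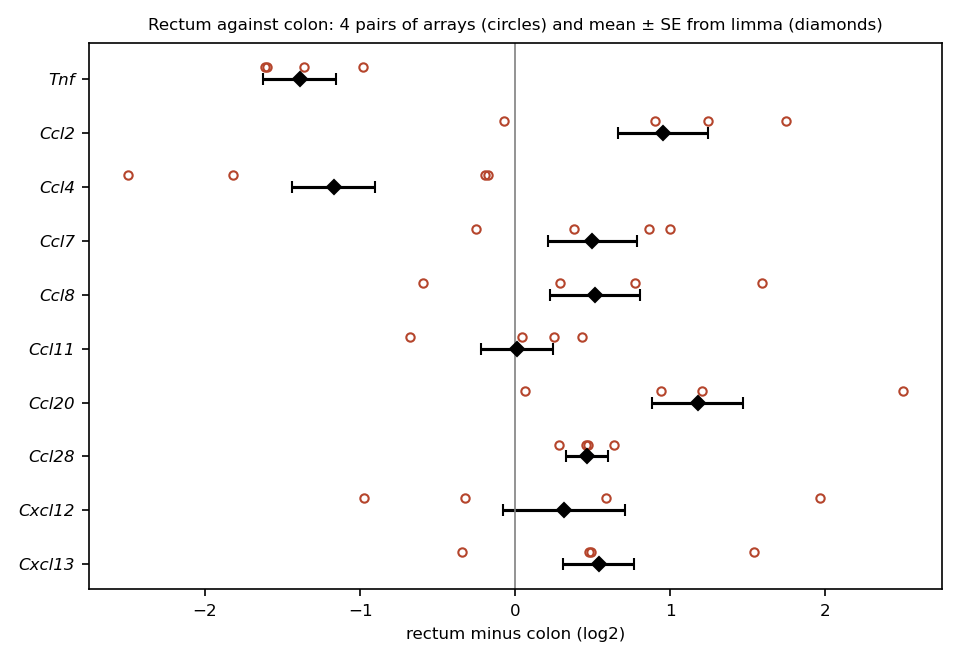
Rectum minus colon in log2 (horizontal axis) for each of the 10 genes; open circles are the 4 differences between arrays of the same genotype and housing, diamonds with bars are the mean and SE from limma. Tnf lies at -1.39 with all 4 pairs below 0, Ccl20 at 1.18 and Ccl28 at 0.46 have all 4 pairs above 0, and the pairs of Ccl4 split by genotype.

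The receptors of these ligands were measured on the same arrays, with 15 of 16 genes on the array and 13 tested. In rectum 5 were higher and 1 was lower, where 12.3% of all probes tested were higher and 12.8% lower. The median difference was 0.13 against 0.06 over all probes tested. Ccr6, the receptor of Ccl20, was higher by 1.23 ± 0.22 (adjusted p = 0.00743), and Cxcr5, the receptor of Cxcl13 on B cells, by 1.24 ± 0.21 (adjusted p = 0.00575). Ccr2, the monocyte receptor for Ccl2 and Ccl7, was higher by 1.27 ± 0.32 (adjusted p = 0.0294), in 3 of 4 pairs. The atypical receptors, which bind chemokines without calling cells, went both ways: Ackr2, which clears inflammatory CC chemokines, was higher by 1.19 and Ackr3, which binds Cxcl12, by 1.04, while Ackr4 was lower by 1.54. The Tnf receptors Tnfrsf1a (0.13, adjusted p = 0.581) and Tnfrsf1b (-0.23, adjusted p = 0.254) and Cxcr4 (-0.71, adjusted p = 0.104) did not pass. Ccr1 and Ccr8 were not well above background on any array.

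Among 23 genes of Tnf signalling and its NF-kB feedback, all tested, 4 were higher and 1 was lower in rectum, with a median difference of 0.05. Over all probes tested 25.1% differed and the median was 0.06, so this list lay close to that background. The adaptor Traf1 was lower by 2.09, and Birc3, an inhibitor of cell death induced through NF-kB, was higher by 0.98, as were the NF-kB restraining protein Tnip1 by 0.87 and the NF-kB subunit Relb by 0.46. Of 26 other chemokine ligands on the array, 18 were tested, 5 were higher and 6 lower in rectum, with a median of -0.47, against the same background. The neutrophil chemokine Cxcl5, not well above background on any colon array, was at least 28.7-fold higher. Cxcl9, a chemokine of activated T cells induced by interferon gamma, and Xcl1, made by cytotoxic lymphocytes, were not well above background on any rectum array and were at least 3.89-fold and 3.32-fold lower, and Ccl9 was lower by 2.52. Cxcl5, Cxcl9 and Xcl1 passed the background filter, at least 4 of 8 arrays, only through the tissue where they were high, so that filter bears on their direction.

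Cell type markers were compared between the tissues as well, where 25.1% of all probes tested differed. T cell and cytotoxic markers had 7 of 11 tested genes lower and 1 higher in rectum, with a median of -0.99. Their summed level, in multiples of the 75th percentile, was 2.56 to 3.67 in rectum against 2.42 to 3.58 in colon, and the largest share of it on every array was that of the 1 higher gene, Thy1 (0.56, adjusted p = 0.0299). Monocyte and macrophage markers had 5 of 10 higher and none lower, with a median of 0.74 and sums of 39 to 89.2 in rectum against 28.2 to 45.2 in colon. B cell and plasma cell markers split, with the B cell gene Ms4a1 higher by 1.85, and the plasma cell genes Jchain lower by 3.33 and Mzb1 by 2.21. Skeletal muscle markers were higher for 10 of 10 genes, with sums of 6.41 to 156 in rectum against 2.96 to 5.39 in colon, and adipocyte markers were lower for 7 of 7, with sums of 10.7 to 35.3 in rectum against 26.7 to 55.5 in colon. The part of any of these cell types in the differences of Tnf, Ccl4, Ccl20 and Ccl28 was not tested.

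The next comparison asked what the loss of interleukin 18 went with in each tissue. No gene of the 10 passed in rectum, where 0.0647% of all probes tested did, or in colon, where 0.0114% did, by limma. In rectum 8 of 10 were lower in IL18ko, with a median of -0.73 against 0.01 over all probes, 8 did not overlap between the genotypes against 45.6% of all probes, and 6 had an unadjusted p under 0.05 against 12.7% of all probes. In colon 5 of 10 were lower, the median was -0.10 against -0.00215 over all probes, 5 did not overlap against 53.5% of all probes, and 2 had an unadjusted p under 0.05 against 7.16%. The genotype difference itself was not shown to depend on tissue for any gene of the 10 (adjusted p of 0.832 to 0.888, 1 with an unadjusted p under 0.05 against 2.86% of all probes, and 0% of all probes called).

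Ccl4 had the largest genotype difference in rectum of the 10, at -2.19 ± 0.38 (IL18ko minus WT, SE from limma, 2 arrays each; adjusted p = 0.266), with means of -7.32 in IL18ko and -5.14 in WT rectum. As neither IL18ko array was well above background, it was at least 2.38-fold lower in IL18ko, measured against the lowest signal well above background of each array. The other differences in rectum were -1.10 for Ccl8 (adjusted p = 0.364), -1.08 for Ccl20 (adjusted p = 0.37), -1.03 for Ccl7 (adjusted p = 0.375) and -1.01 for Tnf (adjusted p = 0.34). The second Ccl7 probe gave a smaller difference, -0.42 (adjusted p = 0.711). Ccl28 was at -0.46 (adjusted p = 0.39), Cxcl13 at -0.24, Ccl2 at -0.23 and Cxcl12 at 0.12, while Ccl11 was at 0.61 (adjusted p = 0.476). Both IL18ko rectum arrays lay below both WT rectum arrays for Tnf, Ccl2, Ccl4, Ccl7, Ccl8, Ccl20 and Ccl28, and above them for Ccl11.

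Whether genes passed in rectum depended on single arrays. Without IL18ko control rectum, Ccl4 (-2.03), Ccl8 (-1.66) and Ccl20 (-1.71) passed, and the same genes passed without WT control rectum. Both fits set 1 IL18ko stress array against 1 WT stress array of rectum, so they give the same differences. In these fits 3433 and 3374 of the 26265 probes passed as well, where 17 did with all arrays. Whichever single colon array was left out, Ccl4 passed in rectum (adjusted p of 0.000355 to 0.000451), with 311 to 316 probes passing. Such fits keep 1 residual degree of freedom and assume that the lone array of a group varies like the others. In the tissue that lost an array, the genotype difference rests on the 1 remaining IL18ko and WT pair of the same housing.

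In colon the largest genotype difference of the 10 was 1.13 ± 0.56 for Cxcl12 (adjusted p = 0.67), which passed at 1.89 without IL18ko control colon (adjusted p = 0.00798) or WT control colon (adjusted p = 0.00762), where only 1 IL18ko and 1 WT array of stressed mice were set against each other. The second Cxcl12 probe gave 0.56 (adjusted p = 0.702). Ccl11 was at 0.88 ± 0.33 and Ccl28 at -0.63 ± 0.19, both with an adjusted p of 0.67 and with unadjusted p of 0.0305 and 0.0129. Tnf was at -0.57 (adjusted p = 0.681), and the 2 colon pairs of Tnf were -0.15 between stressed and -0.999 between control mice. Ccl4, at -7.58 to -7.06 in IL18ko rectum, was at -5.09 and -5.25 in IL18ko colon, both between the WT colon values of -5.36 and -4.54.

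Over both tissues 4 of 4 pairs had lower Tnf (-0.79 ± 0.23, adjusted p = 0.223) and lower Ccl28 (-0.55 ± 0.13, adjusted p = 0.211) in IL18ko, and 4 of 4 had higher Ccl11 (0.75 ± 0.23, adjusted p = 0.232). Ccl11 was the only gene of the 10 whose 4 IL18ko and 4 WT arrays did not overlap, where 8.08% of all probes did not. No gene of the 10 passed by limma, where 0.08% of all probes did, and 5 had an unadjusted p under 0.05 against 15.7% of all probes. Ccl7 was at -0.84 and Cxcl12 at 0.63 by their brightest probes, while their second probes gave -0.27 and 0.25. A fit to the mean of both tissues, with 1 residual degree of freedom, called 8 of the 10, together with 3078 of all probes where the design used here called 21. A fit that took the mouse group (genotype and housing) as a random block called Ccl4 and Ccl28 (adjusted p of 0.0369 for each), with 1614 of all probes.

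Without single arrays up to 3 of the 10 passed over both tissues. Ccl4 (-1.45), Ccl7 (-1.25) and Ccl8 (-1.06) passed without IL18ko stress colon or WT stress colon, at adjusted p of 0.0313 to 0.0363, with 205 of all probes in each fit against 21 with all arrays. Ccl11 (1.09) and Cxcl12 (1.005) passed without IL18ko control colon or WT control colon, at 0.0275 to 0.0303, with 268 and 276 of all probes. Cxcl12 (1.21) passed without IL18ko stress rectum (adjusted p = 0.0441) or WT stress rectum (adjusted p = 0.0456), with 990 and 957 of all probes.

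**Figure D4:**
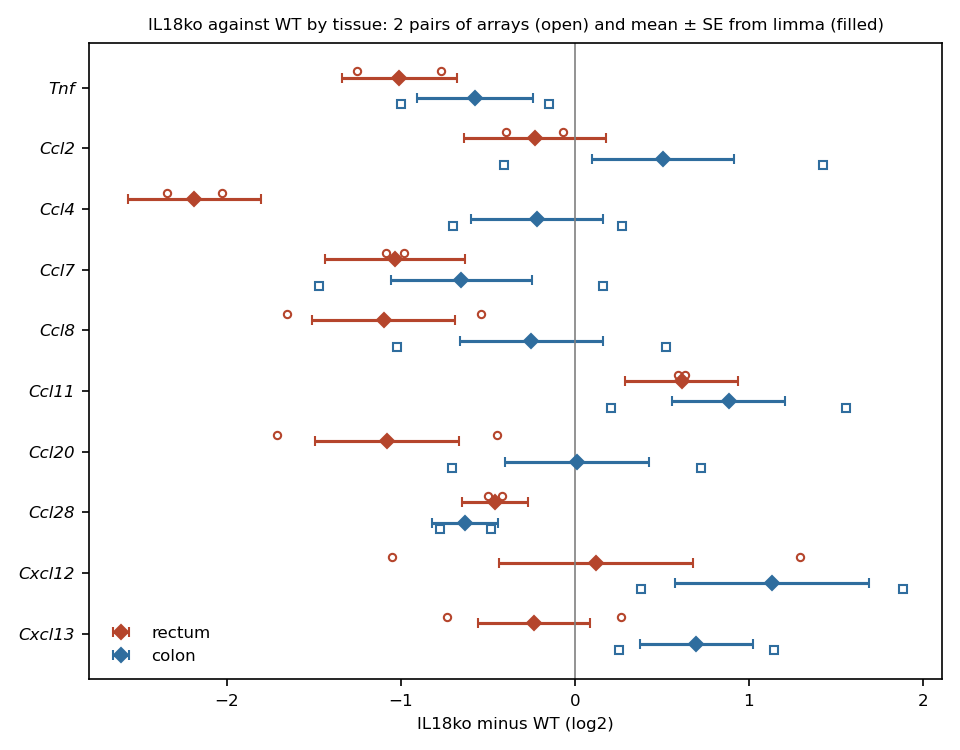
IL18ko minus WT in log2 (horizontal axis) for each of the 10 genes in rectum (circles) and colon (squares); open symbols are the 2 differences between arrays of the same housing, filled diamonds with bars the mean and SE from limma. Ccl4 lies at -2.19 in rectum and -0.22 in colon, and Tnf, Ccl11 and Ccl28 keep 1 sign in every pair of both tissues.

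Cell type markers were set beside these values. Of the adipocyte markers 3 of 7 were higher in IL18ko rectum, namely Adipoq by 2.43, Plin1 by 2.35 and Cidec by 1.91, with sums of 28.7 to 35.3 in IL18ko against 10.7 to 14.7 in WT rectum. Monocyte and macrophage markers summed to 39 to 47.8 in IL18ko against 53 to 89.2 in WT rectum. Of their 10 tested genes 7 were below WT and 3 above, with a median of only -0.16. Of the T cell and cytotoxic markers 8 of 11 were below WT, with a median of -0.26, while their sum of 3.56 to 3.67 in IL18ko lay above the 2.56 to 2.63 in WT rectum and came mostly from Thy1 (0.66, adjusted p = 0.339). Skeletal muscle markers were above WT for 10 of 10 genes, with a median of 3.33 and sums of 34.7 to 156 in IL18ko against 6.41 to 20.6 in WT rectum. Smooth muscle markers were above WT for 7 of 7, with a median of 0.76 and sums of 625 to 635 in IL18ko against 436 to 517 in WT rectum. B cell and plasma cell markers had a median of -0.71 over 8 tested genes and sums of 16.6 to 18.0 in IL18ko against 17.6 to 20.2 in WT rectum. No gene of the macrophage, T cell, B cell or muscle lists passed. No receptor of the 13 tested passed for genotype. The part of these cells in the genotype differences was not tested.

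The last comparison asked what isolation stress went with. No gene of the 10 passed in either tissue or over both, none had an unadjusted p under 0.05, and limma called 0% of all probes, with 1.49% in colon, 1.5% in rectum and 2.35% over both at an unadjusted p under 0.05. The adjusted p of the 10 genes was at least 0.98. Cxcl12 in rectum was at 0.67 by its brightest probe and at 0.05 by its second probe. Cxcl12 in rectum passed only without IL18ko control rectum or IL18ko stress rectum, at 1.85 (adjusted p of 0.0469 and 0.0471), which leaves 1 WT stress array against 1 WT control array. In these fits 1253 and 1244 of the 26265 probes passed as well, against 0 with all arrays.

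Single arrays of colon gave opposite signs in the 2 genotypes. In IL18ko colon all 10 genes were higher on the stress array than on the control array, by 0.13 to 1.06 with a median of 0.70, where 53.9% of all probes were higher. In WT colon all 10 were lower on the stress array, by 0.16 to 0.89 with a median of -0.67, where 48.7% of all probes were lower and 51.3% higher. Higher in IL18ko and lower in WT together held for 27.9% of all probes. Differences of 2-fold or more were found for 2 of the 10 genes in IL18ko, Cxcl12 (1.06) and Ccl11 (1.003), against 3.87% of all probes, and for none in WT, against 4.56%. With 1 array on each side these are values without a test, and the genotype by stress difference is the very spread that the tests use as error.

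In rectum the pattern was not the same. In IL18ko rectum 9 of 10 genes were lower on the stress array, with a median of -0.33, where 47.9% of all probes were lower, and Tnf was higher by 0.29. No gene of the 10 reached 2-fold there, against 3.1% of all probes. In WT rectum 5 were higher and 5 lower, against 49.7% and 50.3% of all probes. They ran from -0.84 for Ccl4 to 1.85 for Cxcl12, the only one of the 10 at 2-fold or more, against 7.8% of all probes. The second Cxcl12 probe gave 0.61 in WT rectum, short of 2-fold. Tnf was the only gene whose direction by genotype was the same in both tissues, higher with stress in IL18ko (0.29 in rectum, 0.28 in colon) and lower in WT (-0.19 in rectum, -0.57 in colon). The share of all probes with these signs in both tissues was not counted.

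**Figure D5:**
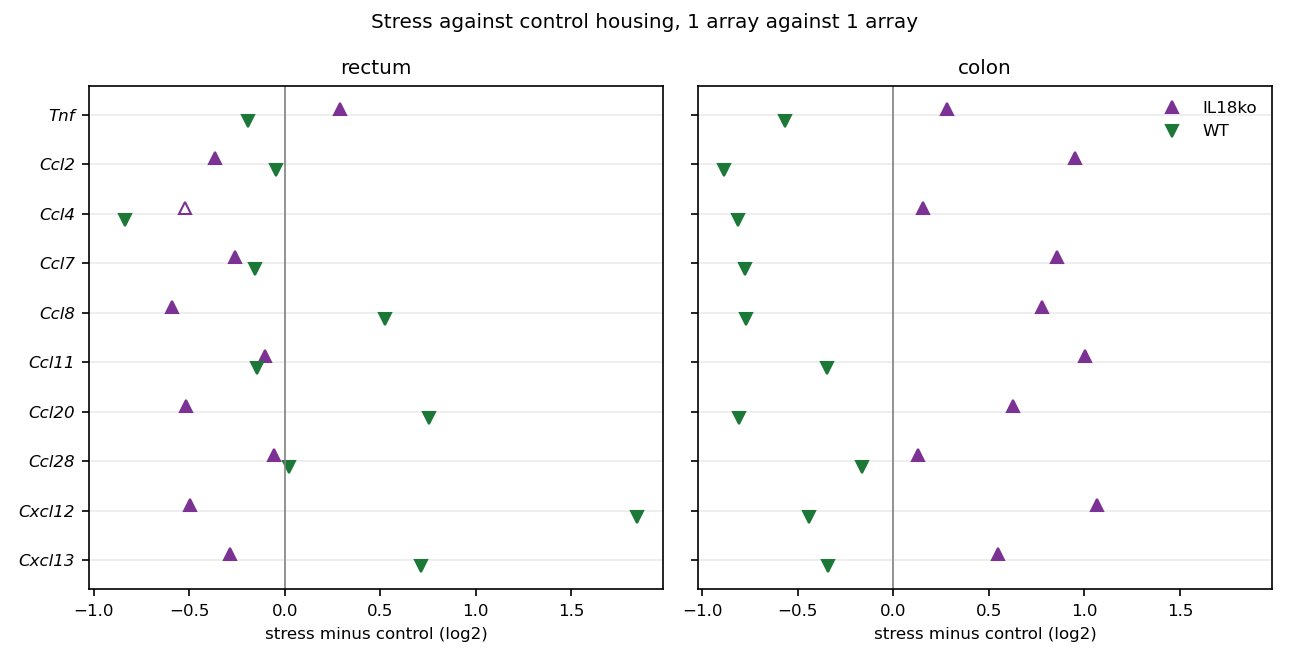
Stress minus control in log2 (horizontal axis) for each of the 10 genes, 1 array against 1 array, in IL18ko (upward triangles) and WT (downward triangles), rectum on the left and colon on the right; the open symbol was not well above background on either array. In colon all 10 IL18ko values lie above 0 and all 10 WT values below 0, while in rectum the values of both genotypes lie on both sides.

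Markers of several cell types, but not of all, lay on the same sides in colon. Of all probes there, 53.9% were higher on the stress array in IL18ko and 48.7% lower in WT. Fibroblast and endothelial markers were higher on the stress array for 12 of 12 genes in IL18ko and lower for 10 of 12 in WT, with sums of 92.5 in IL18ko stress against 58.2 in IL18ko control and 55.2 in WT stress against 59.0 in WT control colon. Monocyte and macrophage markers were higher for 9 of 10 in IL18ko and lower for 8 of 10 in WT, with sums of 45.2 in IL18ko stress against 28.4 in IL18ko control and 28.2 in WT stress against 35.5 in WT control colon. Smooth muscle markers were higher for 7 of 7 in IL18ko and lower for 7 of 7 in WT. Colonic epithelium markers were higher for 6 of 11 in IL18ko and lower for 1 of 11 in WT. Skeletal muscle markers of colon were higher in both genotypes, for 9 of 10 in IL18ko and 8 of 10 in WT. Adipocyte markers of colon were lower in both, for 5 of 7 in IL18ko and 7 of 7 in WT. In rectum, monocyte and macrophage markers were lower on the stress array for 10 of 10 in IL18ko and higher for 8 of 10 in WT, with sums of 39.0 in IL18ko stress against 47.8 in IL18ko control and 89.2 in WT stress against 53.0 in WT control mice. Fibroblast and endothelial markers were lower for 11 of 12 in IL18ko and higher for 11 of 12 in WT, with sums of 92.7 in IL18ko stress against 120 in IL18ko control and 126 in WT stress against 81.1 in WT control rectum. Smooth muscle markers of rectum went the other way, higher for 5 of 7 in IL18ko and lower for 5 of 7 in WT. Of all probes in rectum, 47.9% were lower on the stress array in IL18ko and 49.7% higher in WT. The skeletal muscle markers of rectum summed to 34.7 in IL18ko stress against 156 in IL18ko control, and to 20.6 in WT stress against 6.41 in WT control mice. The part of these cells in the stress values of the 10 genes was not tested.

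The genes also differed in how alike their patterns were. After each tissue's mean was removed, Ccl8 and Ccl20 had a Pearson r of 0.97 over the 8 arrays, Cxcl12 and Cxcl13 of 0.93, and Tnf and Ccl7 of 0.92, while Tnf and Ccl2 had 0.20. The points share the 4 mouse groups and the slides, so these values are a description. Among 11786 genes well above background on all arrays, the closest to Ccl8 was Ccl12 (r = 0.99), the chemokine gene next to it on chromosome 11. The closest to Ccl20 were the lectin receptor gene Cd302 (0.99) and the complement receptor gene C5ar2 (0.99), and to Cxcl12 the transcription factor gene Elk3 and Cd34, a surface marker of endothelium (0.99 each). Ccl11 was closest to Pdlim4 (0.996) and Rcn3 (0.99), Cxcl13 to Cdc42ep3 and Synj2bp (0.99 each), and Ccl28 to Abhd10 (0.996) and Cep57 (0.99). Tnf was closest to Slc25a32 (0.995) and Cgrrf1 (0.97), Ccl7 to Riok2 (0.99) and the chemokine gene Ccl27a (0.98), and Ccl2 to Nlgn3 and Klf6 (0.95 each).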

How the data were processed

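Per the labels, RNA pooled from 5 mice of each of 8 groups was labelled with Cy3 and hybridised to 1-colour Agilent whole mouse genome arrays. Per the file headers, Feature Extraction 9.5.1.1 gave the deposited intensity of each spot, corrected for background and on a linear scale, with a flag for spots well above background. The authors' deposited value table holds, per the labels, ratios over WT control colon, and its log2 values had an r of at least 0.9949 with ratios of the scanner intensities over 18277 probes. The array's genome build differs from the gene table's (RefSeq GRCm38.p6), so only the promoters carry coordinates.

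Outlier spots were removed and spots averaged per probe, which left 40963 of 41174 probes. Transcript accessions named 22857 of them and 18106 stayed unnamed. The log2 intensity was set relative to each array's 75th percentile, and each gene was read from its brightest probe. The 26265 probes that cleared background on 4 or more of the 8 arrays were tested with limma 3.58.1 in R 4.3.3, with tissue, genotype within tissue and housing within tissue as terms, 2 residual degrees of freedom and a variance trend. Calls were made at a Benjamini-Hochberg adjusted p under 0.05 over all probes. This design differs from a fit to tissue means, which is an alternative here. As the labels do not tie rectum to colon pools, arrays entered as independent. Values after ± are SE from limma. Tables were handled with pandas 2.3.3 and numpy 2.4.6 under Python 3.11.15, and plots drawn with matplotlib 3.10.9.

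The genes, lists and tests were chosen with earlier results of these data known. Genes named are the 10 genes, the receptors, at most 4 called genes of each list by size, Il18, and for each of the 10 genes well above background on all arrays the 2 genes of highest Pearson r, and a few genes that this rule takes in are not reported here. The further adhesion, lymphoid, eosinophil, mast cell, neutrophil and squamous epithelium lists are given in the closing section. Alternatives were quantile and median normalization, normexp background correction (offset 50, on median signals), the deposited ratios, other background filters, a floor, no variance trend, other designs, the mean of a gene's probes and leaving out each array. The tests were tried on simulated data with 26265 probes that held changes of 1 and of 2 log2 units together. The rectum against colon test found 90% of the changes of 1 unit and 100% of those of 2. It made 8 false calls among the 198 calls for both sizes. The genotype test in rectum found 60% and 99%, with 5 false calls among 164. The simulated noise was independent between arrays, with the spread of the variance trend for every probe, and held no genotype by housing difference. These rates describe that setting and not the recovery in the data at hand.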

Additional observations from a re-analysis of the deposited data

Results flagged for a closer look

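Tnf was higher on the stress array than on the control array in IL18ko mice, by 0.29 in rectum and 0.28 in colon, and lower on the stress array in WT mice, by 0.19 in rectum and 0.57 in colon, all on the log2 scale. The gap between the genotypes, averaged over the tissues, was 0.66. It was flagged because every IL18ko pair had one sign and every WT pair the other. In colon alone 27.9% of all probes tested were higher in IL18ko and lower in WT. The share of all probes with these signs in both tissues was not counted. The difference between the genotypes was not tested. In IL18ko rectum the probe was at the edge of detection, with 9 of 10 spots well above background on the stress array and 5 of 10 on the control array.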

How the results depend on the processing

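Between rectum and colon 4 of the 10 genes passed. The count was 2 with the deposited ratios, fitted without the variance trend, which hold only 7 of the 10 genes and neither Tnf nor Ccl4 nor Ccl7, 2 with a floor at the lowest signal well above background of each array, and 2 with a random block for mouse group. It was 5 with quantile and with median normalization, where Ccl2 passed too. Tnf passed under each setting that held it, at -0.41 with model-based background correction against -1.39, and Ccl20 under all but the fit to tissue differences (adjusted p = 0.0521). Over both tissues the count for genotype was 0, against 8 with the fit to tissue means and 2 with that random block. The correlation for that block could not be estimated under the main design and came from the additive one (-0.47). Leaving out 1 array at a time gave 3 to 8 calls between the tissues, 0 to 3 for genotype in rectum, 0 to 3 over both tissues, 0 to 1 in colon and for the genotype by tissue difference, 0 to 1 for stress in rectum and 0 to 0 for stress in colon, over both tissues and for the stress by tissue difference. The cause of these moves was not tested. Of the values for single genes, 1590 kept their side of the threshold, 57 gained a call, 17 lost one and none changed sign while called.

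Over all probes the genotype count over both tissues was 21, against 3078 with tissue means, 1614 with the block, 32 with additive terms, 11 when well above background on all arrays was asked, and 5 without the variance trend, both with the scanner intensities and with the deposited ratios. The count between tissues was 6599, against 4341 with the block and 4035 with the deposited ratios and no trend. Leaving out 1 array at a time gave 4467 to 9423 between tissues, 205 to 1877 for genotype over both, 131 to 3433 for genotype in rectum against 17, and 10 to 1253 for stress in rectum against 0. The additive and tissue mean designs give no values by tissue. Dim signals limit Ccl4 and Tnf in IL18ko rectum, and 1 array per group limits every test.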

Other observations

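Further gene lists were compared between rectum and colon, where 25.1% of all probes tested differed, 12.3% higher and 12.8% lower in rectum. The adhesion, the fibroblast and endothelial and the smooth muscle lists lay below that share. Of 9 neutrophil markers on the array only 4 were tested, and 3 of these were higher in rectum, with S100a9 higher by 5.03. S100a8, not well above background on any colon array, was at least 6.98-fold higher. It passed the background filter only through rectum arrays, so that filter bears on its direction. Of the eosinophil and mast cell markers 3 of 8 were higher and 4 lower, with the mast cell protease Cma1, well above background on 3 of 4 colon arrays, higher by 5.38, and the eosinophil receptor gene Siglecf lower by 3.11 and Kit by 1.85. Lymphoid tissue organisers were higher for 4 of 9 and lower for none, with the B cell survival factor Tnfsf13b higher by 1.08 and Il7 by 0.80. Leukocyte adhesion molecules were higher for 2 of 12, Selp by 1.11 and Itgb2 by 0.69. Squamous epithelium markers were higher for 4 of 5, with Krt5 at 2.45, and fibroblast and endothelial markers for 2 of 12, Dcn at 0.78 and Col1a2 at 0.75. Smooth muscle markers had no gene of 7 passing, and colonic epithelium markers had 3 of 11 higher and 2 lower.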
